A study of Mus musculus with 8 samples.

Results

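The genes described here encode the nuclear subunits of the oxidative phosphorylation system, the respiratory chain and ATP synthase of the inner mitochondrial membrane. They were chosen by symbol alone, by the Nduf, Sdh, Uqcr, Cox and Atp5 subunit names together with Cycs and Cyc1, with the 4 pseudogene symbols left out. The rule found 77 of the 31607 genes of the authors' deposited table, and all 77 had an adjusted p. By complex they comprised 35 genes of complex I, 4 of complex II, 9 of complex III, the carrier cytochrome c, 12 of complex IV, 15 of complex V and Atp5s. Atp5s encodes a factor associated with ATP synthase that is not a structural subunit. Ndufa4, first described as a complex I subunit, was counted with complex IV, where it is now placed.

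Lung mesenchymal cells of adult mice injected with tamoxifen were profiled by bulk RNA sequencing in 4 HhipCKO and 4 Control libraries. The HhipCKO mice had the genotype UBCcreER/Myh11creER/Hhipflox/flox, so that a ubiquitous and a smooth muscle driver both supplied the tamoxifen-activated recombinase, and the Control mice were Hhipflox/flox without a recombinase. All mice carried the floxed alleles and all received tamoxifen, so recombinase activity itself differed between the groups along with the deletion. Cells negative for CD45, CD31, Epcam and the dead-cell dye DAPI were sorted, while the extraction protocol speaks of cultured cells, and whether a culture step came between is not given. Nothing in the labels says that the 4 libraries of a group came from separate animals, so the p-values may measure technical spread. All values rest on the authors' deposited table, which holds a mean normalized count over the 8 libraries and 1 comparison of the groups for each gene. Values written with ± are log2 fold changes of HhipCKO against Control with the SE of the authors' fit. The mean normalized counts sum to 128669692 over all genes, and no value per library was at hand. Hhip, the deleted gene, stood at -2.62 ± 0.32 (adjusted p = 9.55e-13) per the authors' deposited table.

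In oxidative phosphorylation, complexes I and II pass electrons from NADH and succinate to ubiquinone. Complex III hands them to cytochrome c and complex IV delivers them to oxygen, while complexes I, III and IV pump protons that drive ATP synthesis by complex V. A few hydrophobic core subunits are encoded by mitochondrial DNA and all others by nuclear genes, which are transcribed in most cell types. NRF1, ETS-family factors such as GABPA, YY1 and the estrogen-related receptors are known activators of these nuclear genes, and the PGC-1 family coactivators work through them.

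The promoters of the genes were searched for the binding sequences of those factors, because many of the genes share them. Windows from 250 bases before to 50 bases after a transcription start were taken from RefSeq on GRCm38.p6 and were at hand for 65 of the 77 genes. Those without a window include Atp5a1, Cox4i1, Cox6c, Cyc1, Ndufa2, Ndufb9, Ndufs1, Sdhc, Uqcrb, Uqcrc2 and Uqcrq. Each motif was searched on both strands. The NRF1 motif, GCGC and TGCGC with any 1 base between them, was present for 17 of 65 genes (26.2%), against 10.3% of 11881 tested genes with a window and 4.60% of all 32851 windows. Of the 17 genes, 5 were higher in HhipCKO at an adjusted p of 0.05 by the authors' Wald test, the threshold used throughout, which 3.06% of all tested genes passed as higher. These 5 are shown with the motif, or its reverse complement, in capitals, followed by Uqcrc1, the gene with the lowest fold change among the 17. Where the surrounding bases lay in an annotated exon only a short stretch around the motif is given.
Atp5g2, chr15:102671070-102671099, minus strand: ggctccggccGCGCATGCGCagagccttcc
Atp5c1, chr2:10080430-10080459, minus strand: ctgagctcccGCGCACGCGCactgagtccc
Ndufa6, chr15:82354249-82354278, minus strand: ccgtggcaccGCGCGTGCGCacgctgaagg
Ndufs5, chr4:123718235-123718324, minus strand: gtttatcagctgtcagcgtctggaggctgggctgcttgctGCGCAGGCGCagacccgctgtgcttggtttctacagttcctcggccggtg
Ndufa5, chr6:24527697-24527726, minus strand: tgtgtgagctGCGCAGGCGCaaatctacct
Uqcrc1, chr9:108936643-108936672, plus strand: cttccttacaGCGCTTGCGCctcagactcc

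The ETS motif CCGGAAG was present for 16 of the 65 genes (24.6%), against 18.02% of the tested genes. The 3 of these 16 that passed the threshold as higher are shown with the motif, or its reverse complement, in capitals.
Ndufb6, chr4:40279607-40279671, minus strand: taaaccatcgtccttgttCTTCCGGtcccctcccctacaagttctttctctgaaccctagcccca
Ndufb7, chr8:83566727-83566755, plus strand: gcctagatgacCCGGAAGacactgaaggg
Atp5e, chr2:174464157-174464243, minus strand: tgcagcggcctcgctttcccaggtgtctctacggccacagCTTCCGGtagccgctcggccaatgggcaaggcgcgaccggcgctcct

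The YY1 motif AAGATGGCG was present for 7 of the 65 genes (10.8%), against 3.09% of tested genes. The estrogen-related receptor motif AAGGTCA was present for 8 (12.3%), against 4.03%. The GC box GGGCGG, bound by SP and KLF factors, was less common than among tested genes, at 40% against 65.8%, and TATAAA was found for 5 genes (7.69%) against 9.33%. At least 1 of the motifs for NRF1, ETS factors, YY1 or the estrogen-related receptors occurred for 35 genes (53.8%), against 31.0% of tested genes. The genes with an NRF1 motif had a median log2 fold change of 0.28 and those without it 0.25, and for the ETS motif the medians were 0.25 and 0.27. These matches are a description of sequence and not of binding.

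As a set the nuclear subunit genes were slightly higher in HhipCKO. Of the 77 genes 20 rose at an adjusted p of 0.05 and none fell, and 57 did not pass, per the authors' deposited table (Wald test, Benjamini-Hochberg over 17469 genes). That is 26.0% of the genes, against the 3.06% of all tested genes that rose. A further 3.92% of all tested genes fell. The 20 calls came down to 2, 0 and 0 once the trend of fold change with transcript length was removed, under 3 definitions of length, and to 0 with the Wald statistics divided by their robust SD, as described further on. At an unadjusted p of 0.05, 49 of the 77 passed, all with positive values. Positive log2 fold changes were found for 76 of 77, the exception being the muscle isoform gene Cox7a1. Among all tested genes 52.7% were positive.

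The differences were small in size. The median log2 fold change was 0.25, a fold of 1.19, with a range from -0.04 to 0.95, and the median over all tested genes was 0.02. Among the 20 genes that rose, the increase ran from 17.4% for Ndufv1 to 92.6% for Ndufs5. Only Ndufs5 and Ndufv3 exceeded 1.5-fold, and 37 genes exceeded 1.2-fold. The approximate level summed over the 77 genes, rebuilt from each mean and fold change, was 451228 normalized counts in Control and 523754 in HhipCKO, 16.1% more. These genes made up 0.379% of the summed mean level of all genes. In a bulk sample more cells of a type and more RNA per cell cannot be told apart. The values therefore do not say whether all cells or some of them differed.

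**Figure D1:**
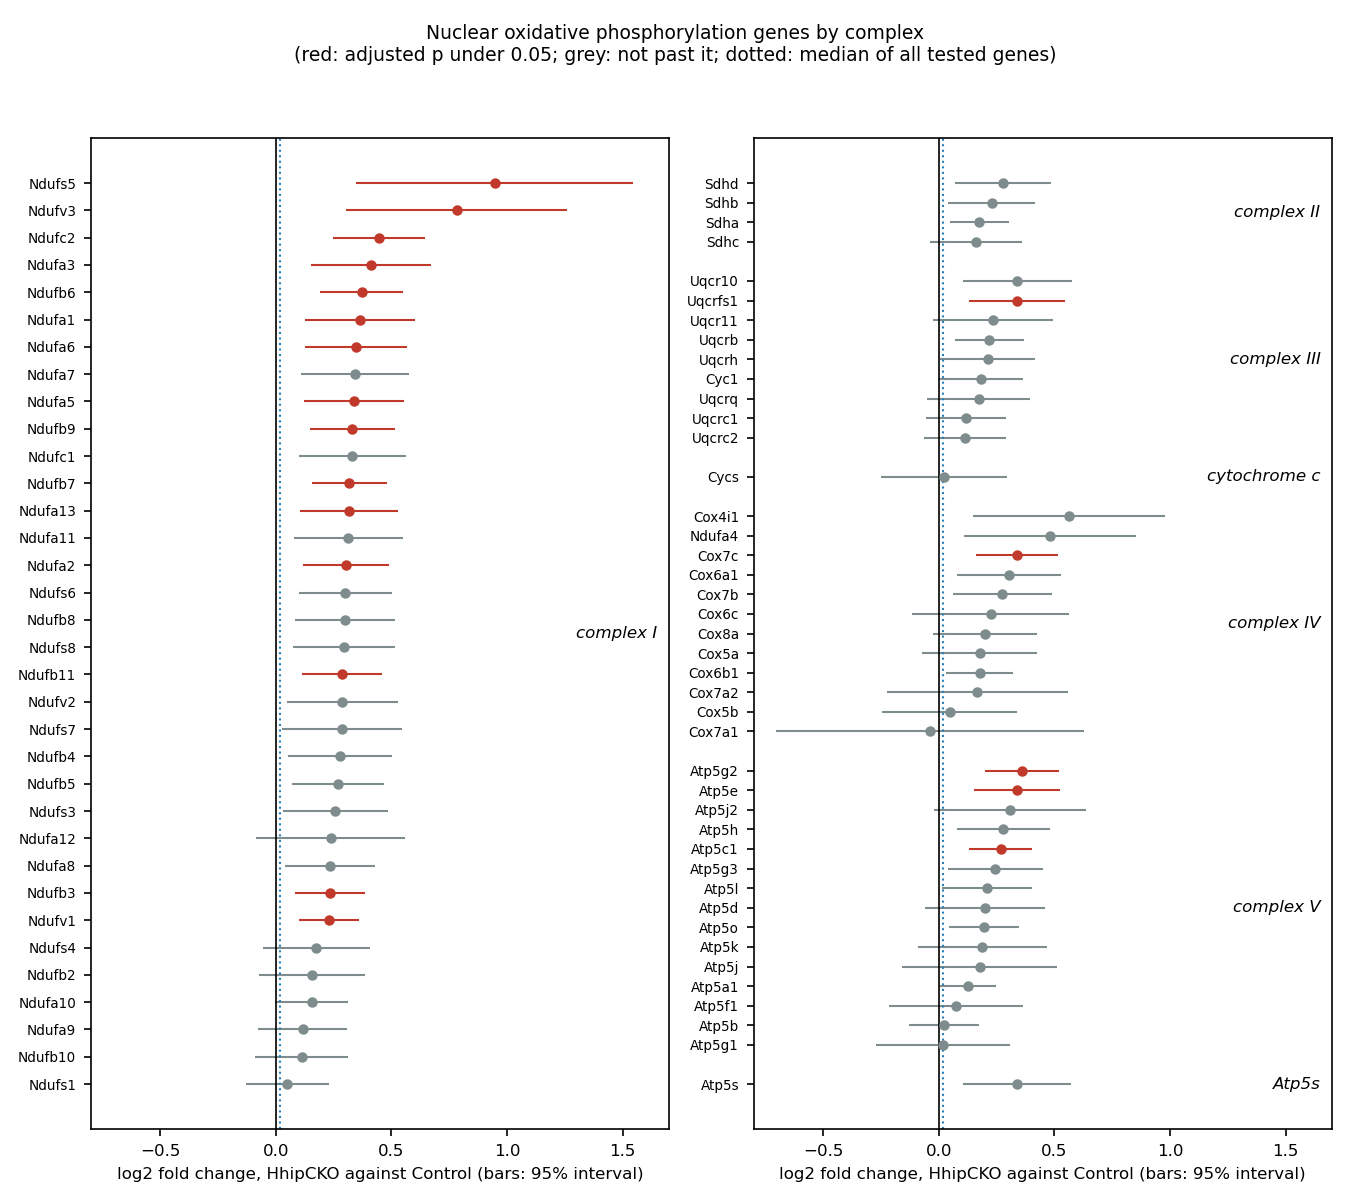
Log2 fold change of HhipCKO against Control for 76 of the 77 genes by complex, with bars for the 95% interval and the dotted line at the median of all tested genes (0.02). The 20 red genes passed an adjusted p of 0.05, 15 of them in complex I, and Cox7a1 is the 1 gene with a negative value.

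Complex I, the entry point for electrons from NADH, held most of the genes that rose. Of its 35 nuclear genes 15 rose (42.9%), none fell and 20 did not pass, while 3.06% of all tested genes rose. All 35 values were positive, and the median log2 fold change was 0.29. Of the 28 accessory subunits, which surround the catalytic core and are needed for its assembly and stability, 14 rose, with a median of 0.31. Of the 7 nuclear core subunits, which carry the flavin and the iron-sulfur clusters, 1 rose, with a median of 0.26. The median coding transcript was 868 bases for the accessory and 1623 for the core genes. With the trends on the longest, the longest coding and the median coding transcript removed, the accessory median became 0.17, 0.079 and 0.099. The core median became 0.11, 0.077 and 0.091. In these settings 1, 0 and 0 accessory genes and no core gene were called higher. The difference between accessory and core subunits was not tested.

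Ndufc2, an accessory subunit of the membrane arm, had the smallest p of complex I. Its approximate level was 3400.1 normalized counts in Control and 4634 in HhipCKO, an increase of 36.3% with a 95% interval from 18.7 to 56.4%. The authors' deposited table gave it a log2 fold change of 0.45 ± 0.10 (SE) at an adjusted p of 9.59e-04. Its gene (ENSMUSG00000030647) spans chromosome 7, plus strand, from 97400003 to 97407802 on GRCm38. Among all genes of the table its p ranked at position 205.

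Of the 10 genes named Ndufb, which encode accessory subunits of the membrane arm, 5 rose and 5 did not pass. The share of all tested genes that rose was 3.06%. Ndufb6 (0.37 ± 0.09, adjusted p = 0.00289), Ndufb7 (0.32 ± 0.08, 0.00514) and Ndufb9 (0.33 ± 0.09, 0.0127) rose per the authors' deposited table, by 29.3, 24.7 and 25.8%. The X-linked Ndufb11 rose by 22.03% and Ndufb3 by 17.6%, with adjusted p of 0.0247 and 0.0402 per the authors' deposited table. Ndufb8, Ndufb5 and Ndufb4 had values of 0.30 ± 0.11, 0.27 ± 0.10 and 0.28 ± 0.11 (SE), with adjusted p of 0.0745, 0.0783 and 0.121 per the authors' deposited table. Ndufb10 and Ndufb2 had lower values, 0.11 ± 0.10 and 0.16 ± 0.12 (SE) per the authors' deposited table.

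The largest fold changes belonged to Ndufs5 and Ndufv3. Ndufs5 encodes an accessory subunit on the intermembrane face, and its approximate level went from 658 in Control to 1267 in HhipCKO. That is an increase of 92.6% with a wide 95% interval from 27.1 to 191.9%, and the authors' deposited table gave 0.95 ± 0.31 (log2 fold change, SE, adjusted p = 0.0347). Ndufv3, a small accessory subunit of the NADH-oxidizing module, rose by 72.1% (interval 23.6 to 139.5%), at 0.78 ± 0.24 (SE, adjusted p = 0.0266) per the authors' deposited table. Their errors were the largest in complex I. The coefficient of variation between libraries of 1 group that such errors imply was 29.8% for Ndufs5 and 23.8% for Ndufv3, against a median of 10.6% over the 77 genes and 18.6% over all tested genes.

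The other accessory genes that rose lay close together. Ndufa2, a subunit of the NADH-oxidizing module, Ndufa5, of the peripheral arm, Ndufa6, which binds the mitochondrial acyl carrier protein, and Ndufa1, Ndufa3 and Ndufa13, with membrane-spanning helices, rose by 23.4 to 33.1%. Their adjusted p per the authors' deposited table ran from 0.0281 for Ndufa2 to 0.0493 for Ndufa13. Ndufa13, Ndufa1 and Ndufb3 were the 3 genes just inside the threshold, at adjusted p of 0.0493, 0.0439 and 0.0402 per the authors' deposited table. Just outside it were Ndufs6 at 0.0501, the complex III subunit Uqcrb at 0.0524 and Ndufa7 at 0.0556 in the same deposited table of the authors. Ndufa7 had a log2 fold change of 0.34, larger than those of 12 genes that passed.

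Among the core subunits, Ndufv1 rose. It encodes the flavoprotein that oxidizes NADH, and it stood at 0.23 ± 0.07 (log2 fold change, SE, adjusted p = 0.0131) per the authors' deposited table, an increase of 17.4% with an interval from 7.3 to 28.5%. Ndufs1, the large iron-sulfur subunit of the same module, had 0.05 ± 0.09 (SE, adjusted p = 0.809) per the authors' deposited table, the lowest value of complex I. For Ndufs1 the 95% interval reached from 8.7% lower to 17.35% higher, just short of the increase of 17.43% seen for Ndufv1. The intervals of Ndufs1 and Ndufv1 overlap, and the difference between them was not tested.

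Complex II, succinate dehydrogenase, is encoded entirely in the nucleus and is shared with the tricarboxylic acid cycle. None of its 4 genes passed. Sdha, the flavoprotein, had 0.17 ± 0.07 (SE, adjusted p = 0.0775) per the authors' deposited table, and the anchor gene Sdhd the largest value, 0.28 ± 0.11 (SE, adjusted p = 0.0852). Sdhb, the iron-sulfur subunit, and the anchor gene Sdhc stood at 0.23 ± 0.10 and 0.16 ± 0.10 (SE) per the authors' deposited table. The median of the 4 was 0.20.

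In complex III 1 of 9 genes rose (11.1%), while 3.06% of all tested genes did. The median log2 fold change of the complex was 0.21. The gene that rose was Uqcrfs1, the Rieske iron-sulfur protein, which passes electrons towards cytochrome c1. It stood at 0.34 ± 0.11 (SE, adjusted p = 0.0268) per the authors' deposited table. Its approximate level was 4706 normalized counts in Control and 5949 in HhipCKO, 26.4% more (interval 9.6 to 45.9%). Cyc1, cytochrome c1, had 0.18 ± 0.09 (SE, adjusted p = 0.239) per the authors' deposited table. The core proteins Uqcrc1 and Uqcrc2 had the lowest values of the complex, 0.12 ± 0.09 and 0.11 ± 0.09 (SE) per the authors' deposited table. Uqcr10, a small supernumerary subunit, had a value as large as that of Uqcrfs1, 0.34 ± 0.12 (SE, adjusted p = 0.0582) per the authors' deposited table, without passing.

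Cycs encodes the mobile carrier cytochrome c, which links complexes III and IV. It stood at 0.02 ± 0.14 (SE, adjusted p = 0.952) per the authors' deposited table, with approximate levels of 4665 normalized counts in Control and 4739 in HhipCKO. The 95% interval of its change, from 15.8% lower to 22.5% higher, includes the median change of the set.

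Complex IV, cytochrome c oxidase, had 1 gene of 12 past the threshold (8.33%) and a median of 0.21. The share of all tested genes that rose was 3.06%. Cox7c, a small membrane subunit, rose by 26.3% (interval 11.7 to 42.8%), at 0.34 ± 0.09 (SE, adjusted p = 0.00719) per the authors' deposited table. With the 3 length trends removed it stood at 0.16, 0.097 and 0.11 and no longer passed (adjusted p of 0.405, 0.694 and 0.643, Wald statistic recomputed with the deposited SE), nor did it with the robust SD (adjusted p = 0.566). The median of complex IV became 0.088 with the trend on the longest transcript removed and -0.037 and -0.012 with those on the longest and the median coding transcript, where 5 and 6 of its 12 genes were positive. Larger but less precise values belonged to Cox4i1, the main form of subunit 4, and Ndufa4. These stood at 0.56 ± 0.21 (adjusted p = 0.0783) and 0.48 ± 0.19 (adjusted p = 0.0980) per the authors' deposited table. Cox5b, a zinc-binding subunit, had 0.05 ± 0.15 (SE) per the authors' deposited table.

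Several complex IV subunits have tissue forms. Cox7a1, the heart and skeletal muscle form of subunit 7a, had a mean level of only 203 normalized counts and a value of -0.04 ± 0.34 (SE) per the authors' deposited table, while the widely expressed form Cox7a2 had 0.17 ± 0.20 (SE). Per kilobase of coding transcript the mean level was 419 for Cox7a1 and 5660 for Cox7a2. Cox4i2, the form of subunit 4 best known from lung, lies outside the rule and had -0.43 ± 0.25 (SE, adjusted p = 0.311) per the authors' deposited table. Per kilobase it had a mean level of 3418 against 17093 for Cox4i1. The muscle forms Cox6a2 and Cox8b, at 0.85 ± 0.49 and 0.25 ± 0.38 (SE), and Ndufa4l2, a hypoxia-inducible relative of Ndufa4, at -0.18 ± 0.26 (SE), did not pass per the authors' deposited table. Differences between these tissue forms and their widely expressed partners were not tested.

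In complex V, the ATP synthase, 3 of 15 genes rose (20%), while 3.06% of all tested genes did. The median log2 fold change of the complex was 0.20. Atp5g2, one of the genes for the proton-carrying c ring, had the smallest p, at 0.36 ± 0.08 (SE, adjusted p = 9.59e-04) per the authors' deposited table. Its approximate level was 4648 in Control and 5970 in HhipCKO, 28.4% more (interval 14.9 to 43.6%). On GRCm38 the gene (ENSMUSG00000062683) spans chromosome 15, minus strand, from 102662864 to 102672352. Atp5c1, the γ subunit that turns inside the catalytic head, rose by 20.4%, and Atp5e, the ε subunit at its foot, by 26.4%, with adjusted p of 0.00517 and 0.0112 per the authors' deposited table.

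Atp5g1, Atp5g2 and Atp5g3 encode the same mature c subunit behind different import sequences. Atp5g1 stood at 0.02 ± 0.15 (SE, adjusted p = 0.965) and Atp5g3 at 0.25 ± 0.10 (SE, adjusted p = 0.133) per the authors' deposited table. The interval of Atp5g1, from 17.1% lower to 23.8% higher, overlaps that of Atp5g2, and the difference between them was not tested. The α and β subunits of the catalytic head did not pass. Atp5b, the β subunit and the gene with the highest mean level of all 77, had 0.02 ± 0.08 (SE, adjusted p = 0.908) per the authors' deposited table, and Atp5a1, the α subunit, 0.13 ± 0.06 (SE, adjusted p = 0.218). The approximate level of Atp5b was 44063 in Control and 44754 in HhipCKO. The peripheral stalk genes Atp5h, Atp5o, Atp5j and Atp5f1 and the small membrane subunits Atp5l, Atp5j2 and Atp5k ranged from 0.08 to 0.31 and did not pass. Atp5s stood at 0.34 ± 0.12 (SE, adjusted p = 0.0600) per the authors' deposited table.

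Levels of the 77 genes differed widely between subunits that stand together in 1 complex. Per kilobase of coding transcript the mean level was highest for Atp5b (23178), Cox6a1 (22988), Cox8a (19881) and Cox4i1 (17093). It was lowest for Cox7a1 (419), Atp5s (539), Ndufb2 (637) and Atp5g1 (652). For Ndufb2 and Atp5g1 the longest annotated coding transcripts, of 4371 and 4715 bases, lower the value, and with the median coding transcript Atp5g1 came to 1149. The median per kilobase was 3538 in complex I, 4658 in complex II, 6368 in complex III, 7819 in complex IV and 7262 in complex V.

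**Figure D2:**
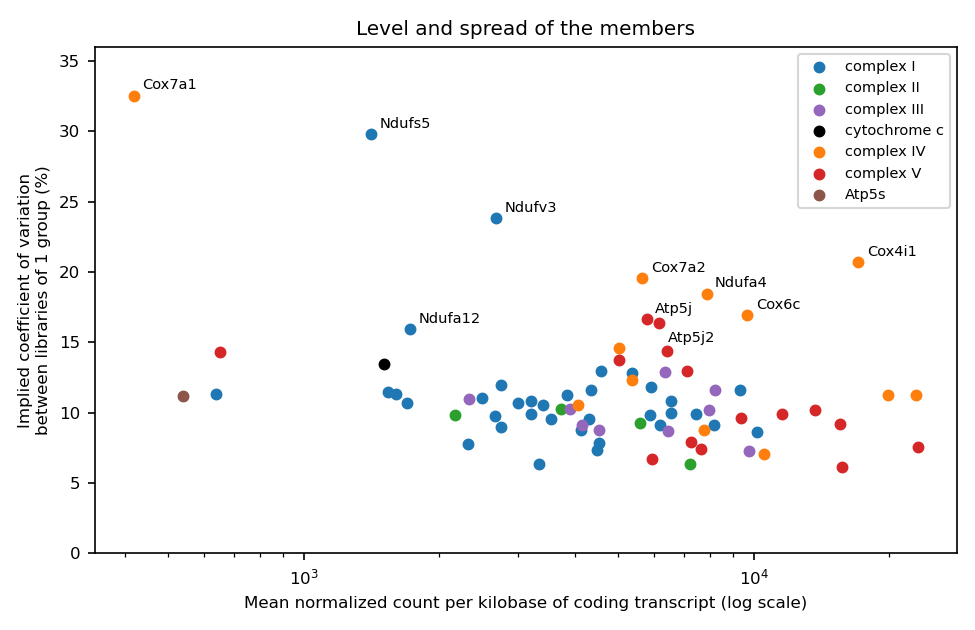
Coefficient of variation between libraries of 1 group implied by the deposited SE (vertical axis, %) against the mean normalized count per kilobase of coding transcript (horizontal axis, log scale), with 1 point for each of the 77 genes coloured by complex. The median is 10.6%, 10 genes lie over 15%, and Cox7a1 (32.5%), Ndufs5 (29.8%) and Ndufv3 (23.8%) lie highest.

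Precision decided in part which genes passed. The implied coefficient of variation ran from 6.13 to 32.5% with a median of 10.6%. At the median SE of 0.11, a log2 fold change of 0.21 is the smallest whose 95% interval leaves out 0, and the medians of complexes II to V did not exceed it. That bar matches an unadjusted p of 0.05, which 49 of the 77 genes passed, and the adjusted threshold was stricter. By the authors' Wald test Ndufa13 passed it at an unadjusted p of 0.00341 and Ndufs6 did not at 0.00350. Ndufv1 passed at an increase of 17.4% with an SE of 0.07, while Cox4i1 did not at 47.9% with an SE of 0.21. Overlapping genes are a further limit, since the strand setting of the counting was not given in the sources used here. Of the 77 genes 35 overlap another annotated gene, 27 of them 1 on the opposite strand, and of the 20 that rose 10 overlap another gene and 10 do not.

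The genes are short, and over the whole table fold changes declined as transcripts grew longer. Their longest coding transcripts had a median of 908 bases, against 3152 for all tested coding genes. Among other tested genes the median log2 fold change was 0.23 for coding transcripts under 600 bases, 0.22 from 600 to 1000, 0.19 from 1000 to 1500, 0.10 from 1500 to 2500 and -0.06 above 2500. For the oxidative phosphorylation genes the medians in the same classes were 0.30, 0.29, 0.27, 0.18 and 0.13, over 15, 28, 12, 15 and 7 genes. In each class their median lay above that of the other genes, by 0.07 to 0.18. The largest gap lay in the class above 2500 bases, which has no upper limit. Its 7 genes reach at most 4715 bases and other genes run longer, such as Hhip at 9074, so length is not matched there. Under 1000 bases 15 of the 43 genes rose (34.9%), against 11.7% of 684 other genes of that length. Neither these shares nor the 26.0 and 3.06% given above were matched for level or SE. The median SE was 0.11 for the 77 genes and 0.19 for all tested genes, and the median of the mean levels 4648 and 1810. Across the 77 genes the log2 fold change fell with coding length as well, with Spearman's rho of -0.43 and Pearson's r of -0.34 on log10 length. These correlations run across genes of the same libraries, which are not independent replicates.

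**Figure D3:**
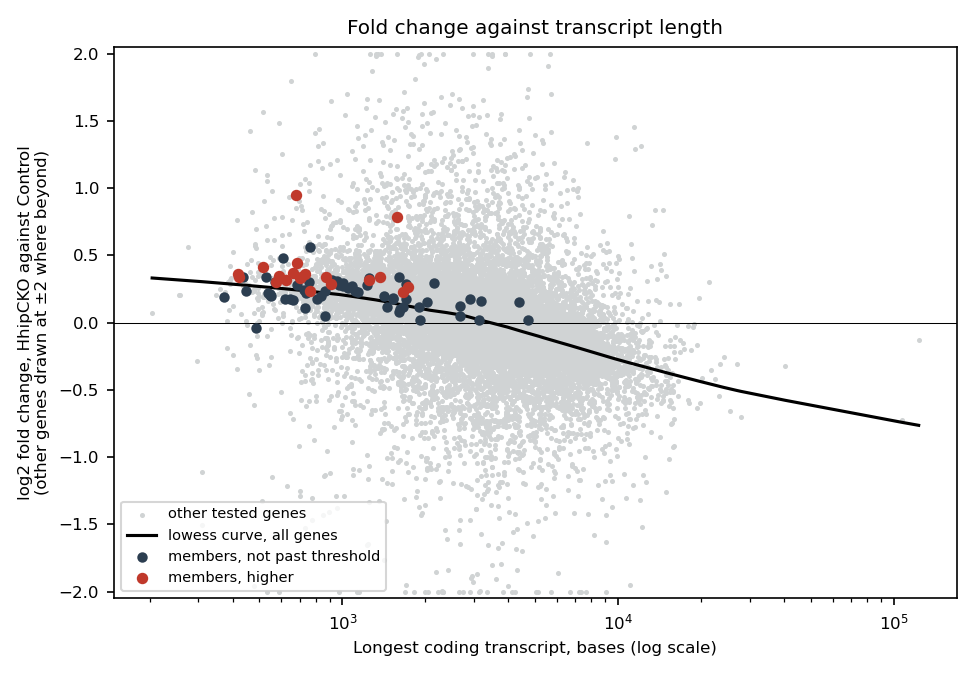
Log2 fold change of HhipCKO against Control (vertical axis) against the length of the longest coding transcript in bases (log scale), with grey points for other tested genes, coloured points for the 77 genes (red where past an adjusted p of 0.05) and a lowess curve through all genes. The 77 genes lie at the short end, where the medians of other genes were 0.23 and 0.22 in the classes under 1000 bases.

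With the curve of fold change on length subtracted, most of the shift and nearly all calls were lost. This adjustment was made with the longest transcript of each gene and, as alternatives chosen after seeing the data, with the longest or the median coding transcript. The median of the 77 genes became 0.12, 0.059 and 0.080, and 67, 55 and 57 of them remained positive. After the adjustment on the longest transcript 2 genes passed, Ndufb7 at 0.36 (adjusted p = 0.00169, Wald statistic recomputed with the deposited SE, Benjamini-Hochberg) and Atp5l at 0.35 (adjusted p = 0.0210), where 1.32% of all tested genes were called higher. Their longest annotated transcripts, of 4435 and 6310 bases, far exceed their longest coding transcripts, of 623 and 544 bases. As deposited these 2 genes stood at 0.32 and 0.21, and with the trend on the longest coding transcript removed at 0.067 and -0.054. Under both coding lengths none passed, where 1.28 and 1.4% of the genes with a coding length were called higher. Ndufs5 and Ndufv3 kept the largest values without passing. Length thus moved with the result, and what lies behind that relation was not tested.

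**Figure D4:**
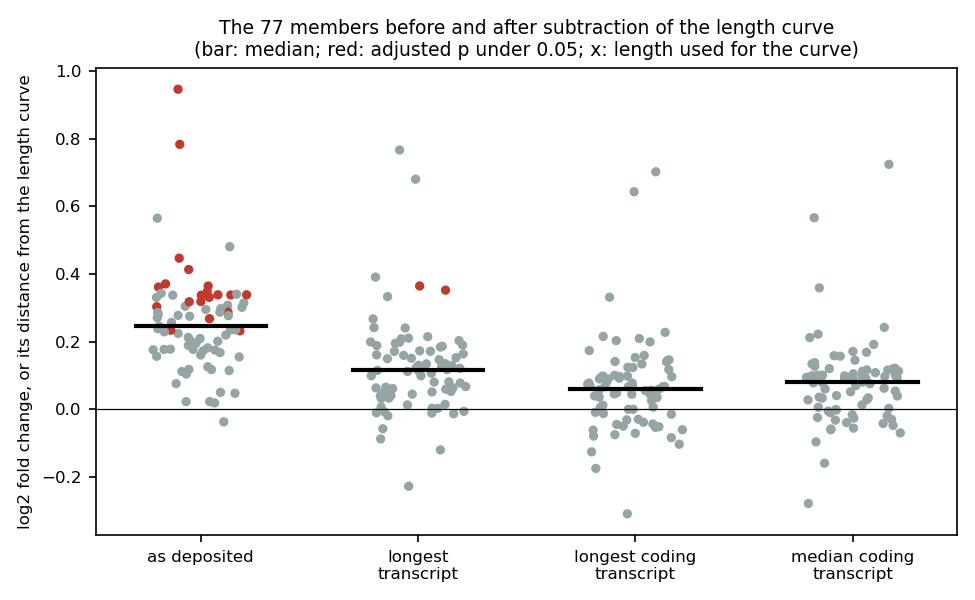
Log2 fold changes of the 77 genes as deposited and as distance from the length curve under 3 definitions of transcript length, with bars at the medians (0.25, 0.12, 0.059 and 0.080) and red points past an adjusted p of 0.05. Red points number 20 as deposited, then 2, 0 and 0.

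The calls also depended on how far the deposited Wald statistics are taken at face value. Their robust SD over all tested genes was 1.53. With the statistics divided by that value none of the 77 genes passed, and 0.0401% of all tested genes were called higher. Other thresholds moved the count for these genes and the background in the same direction. At an adjusted p of 0.1, 37 of the 77 were called higher against 5.23% of all tested genes, and at 0.01, 6 were, against 1.12%. With no filter on low levels 13 were called (1.27% of 31457 genes) and with a mean level of at least 500, 24 (4.11%). Fold changes centred on the median of all tested genes gave 16 (2.63%), and centred on the median of the 10% of genes with the highest levels, which lay at -0.05, they gave 43 (5.96%).

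Other genes of the pathway were counted in lists drawn up by function. Of 49 assembly factors, which build the complexes but are not part of them, 9 rose (18.4%) and none fell, with a median of 0.18. Of all tested genes 3.06% rose and 3.92% fell. Tmem242, an assembly factor of ATP synthase, Coa3, of complex IV, and Sdhaf1, which helps insert the iron-sulfur clusters of Sdhb, stood at 0.38 ± 0.09, 0.39 ± 0.09 and 0.63 ± 0.17 (SE), with adjusted p of 7.63e-04, 0.00135 and 0.00778 per the authors' deposited table. Of 12 tested subunits, isoforms and associated proteins outside the rule 1 rose (8.33%), Atpif1, which inhibits ATP hydrolysis by the synthase, at 0.35 ± 0.09 (SE, adjusted p = 0.00371) per the authors' deposited table. The median of these 12 was 0.25.

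None of the 13 protein genes of mitochondrial DNA passed at an adjusted p of 0.05 by the authors' Wald test, and none had an unadjusted p under 0.05. Their median was 0.07, with 8 positive and 5 negative values. The lowest was mt-Nd4l, a complex I core subunit, at -0.29 ± 0.15 (SE, adjusted p = 0.234) per the authors' deposited table, and mt-Co2, a complex IV core subunit, had 0.18 ± 0.12 (SE, adjusted p = 0.417). These 13 genes made up 1.73% of the summed mean level. Their median coding transcript was 784 bases, against 908 for the nuclear subunit genes. With the trends on the longest, the longest coding and the median coding transcript removed, their median became -0.077, -0.13 and -0.099. In these settings 2, 0 and 0 of the 13 values were positive. Each setting called 1 of the 13 genes lower, against 1.77, 1.44 and 1.73% of all genes with that length. A difference between the nuclear and the mitochondrial genes was not tested.

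Of 78 protein genes of the mitochondrial ribosome, which translates those messages, 11 rose (14.1%) and none fell, with a median of 0.21, among them Mrpl55 at 0.40 ± 0.10 and Mrps14 at 0.31 ± 0.09 (SE) per the authors' deposited table. Of 17 enzymes of the tricarboxylic acid cycle none passed, with a median of 0.08, and of 18 glycolytic genes none passed, with a median of 0.03. By unadjusted p under 0.05 the numbers were 4 and 3. The median coding transcripts of these lists were 2580 and 2832.5 bases, against 908 for the subunit genes. With the 3 length trends removed the medians were 0.0081, 0.010 and 0.044 for the cycle and -0.070, -0.073 and -0.060 for glycolysis. Those of the subunit genes were 0.12, 0.059 and 0.080, and the differences were not tested. Of 28 import and carrier genes 2 rose (7.14%), the import receptor Tomm22 and the channel Vdac2, and of 10 antioxidant genes 1 rose (10%), Prdx5, a peroxidase, at 0.38 ± 0.11 (SE, adjusted p = 0.00931) per the authors' deposited table. For all lists of this paragraph the share of all tested genes that rose was 3.06%.

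Of 17 regulators of mitochondrial genes none rose and 1 fell, 10 values were positive, and the median was 0.02. The median coding transcript of the regulators was 4153 bases, against 908 for the subunit genes. With the 3 length trends removed their median became 0.099, 0.11 and 0.0045, against 0.12, 0.059 and 0.080 for the subunit genes. In each of these settings 1 of the 17 was called higher, against 1.32, 1.28 and 1.4% of all genes with that length. The difference between the regulators and the subunit genes was not tested. The gene that fell was Pprc1, a coactivator of the PGC-1 family, at -1.20 ± 0.26 (SE, adjusted p = 4.24e-04) per the authors' deposited table. Its approximate level in HhipCKO dropped by 56.4% against Control. It still passed with each length trend removed, at -1.06 to -1.10, but not with the statistics divided by their robust SD (adjusted p = 0.314). Ppargc1a, Nrf1, Gabpa and Tfam had values of -0.02 ± 0.29, -0.11 ± 0.09, -0.05 ± 0.07 and 0.14 ± 0.10 (SE) per the authors' deposited table, and none of the 4 passed. Ssbp1, the mitochondrial single-stranded DNA-binding protein, and Yy1 had larger values, 0.33 ± 0.15 and 0.20 ± 0.09 (SE). Their unadjusted p were 0.0267 and 0.0304 and their adjusted p 0.162 and 0.174 per the authors' deposited table, so neither passed.

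Lists of other housekeeping genes were counted as well. Of 77 cytosolic ribosomal protein genes 25 rose and 1 fell, with a median log2 fold change of 0.25, and of 31 proteasome genes 6 rose and none fell, with a median of 0.14. The shares that rose were 32.5 and 19.4%, while of all tested genes 3.06% rose and 3.92% fell. The ribosomal gene that fell, Rpl29, stood at -1.52 ± 0.35 (SE, adjusted p = 9.998e-04) per the authors' deposited table. The median coding transcript of the ribosomal list was 914 bases and that of the proteasome list 1581 bases. With the length trends removed 2, 1 and 1 of the ribosomal genes, 7, 6 and 4 of the mitochondrial ribosome list and 1, 1 and 1 of the assembly factors were called higher. In the same settings 1.32, 1.28 and 1.4% of all genes with that length were called higher. Differences between these lists and the nuclear oxidative phosphorylation genes were not tested.

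**Figure D5:**
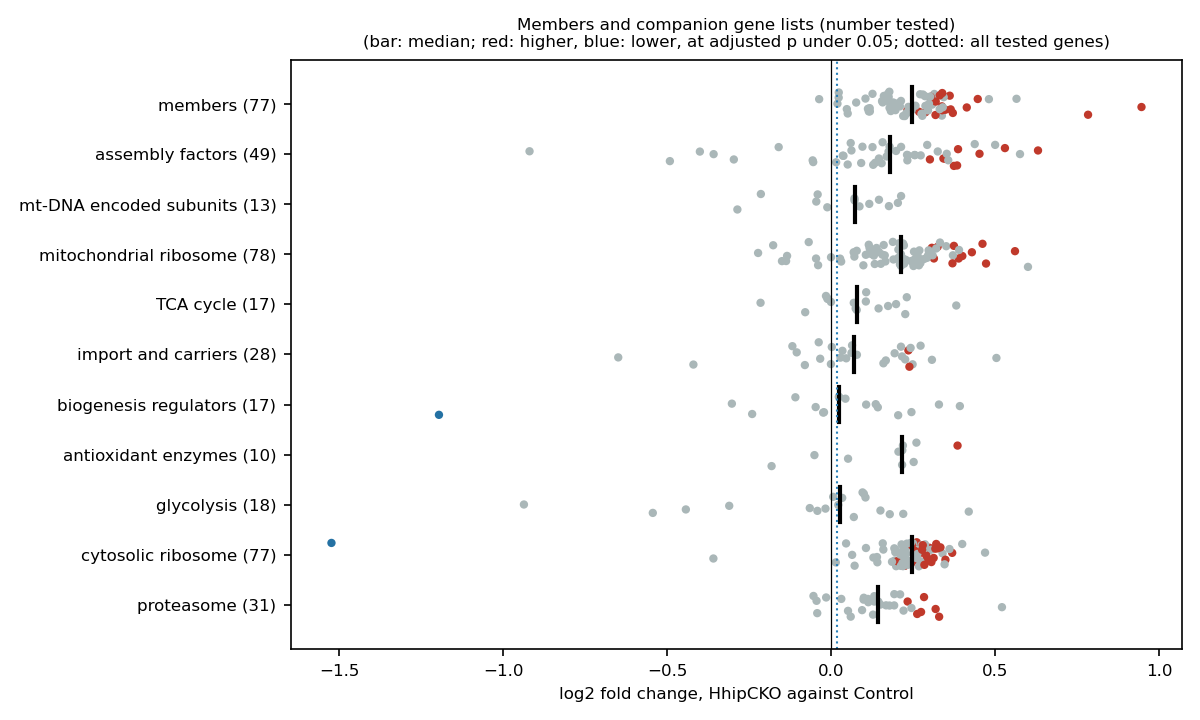
Log2 fold change of HhipCKO against Control for the 77 genes (top row) and 10 lists of other genes, with the number tested in brackets, bars at the medians, red for higher and blue for lower at an adjusted p under 0.05 and a dotted line at the median of all tested genes. The medians of the top row, the cytosolic ribosome and the mitochondrial ribosome are 0.25, 0.25 and 0.21, and that of the mitochondrially encoded genes is 0.07.

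Markers of cell types rich in mitochondria or removed by the sort were compared beside these values. The 11 mesenchymal markers were abundant, with approximate summed levels of 4032980 in Control and 3951063 in HhipCKO, and none of the 7 marker lists had a member past the threshold. Sums for striated muscle were 45831 and 39909, most of it the actin gene Actc1, and for brown adipocytes 714 and 809, with Ucp1, the defining uncoupling protein, at a mean of 2.63 normalized counts. Leukocyte markers summed to 26719 in Control and 63133 in HhipCKO and epithelial markers to 91075 and 207538, while endothelial markers summed to 14626 and 13384 and erythroid markers to 37449 and 16082. No marker of these lists was listed at 0. Positive values were found for 8 of 10 leukocyte markers and 5 of 7 epithelial markers, and for 4 of 11 mesenchymal markers. Each of these sums rested largely on 1 gene with a wide error, Lyz2, a lysozyme of macrophages, at 1.53 ± 1.35 and Sftpc, a surfactant protein, at 1.41 ± 1.27 (SE) per the authors' deposited table. Without Lyz2, left out after seeing the data, the leukocyte sums were 7247 in Control and 6789 in HhipCKO, and without Sftpc the epithelial sums were 34413 and 56557. The part of these cell types in the oxidative phosphorylation values was not tested.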

How the data were processed

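Bulk RNA sequencing libraries, 4 HhipCKO and 4 Control, were grouped by their titles. Per the submitters' processing notes the authors used FastQC, STAR and DESeq on GRCm38 (mm10). Versions, annotation, counting tool and strand setting are not given in the sources used here. The authors' deposited table gives for each gene, per the file headers, the mean of the normalized counts (a signal), the HhipCKO over Control change on the log2 scale and its SE, the Wald score and the raw and adjusted p-value. It has 0 columns of values per library, so depth per library was not analysed and the planned edgeR, limma or permutation tests could not be run. The authors' Wald tests were used, at an adjusted p of 0.05. In the deposited table log2 changes divided by their SE match the Wald scores within 2.56e-07, and the lowest mean with an adjusted p is 42.1.

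From these values normal 95% intervals of each fold change, approximate group levels and the coefficient of variation implied by each SE for 4 libraries a group were computed. Gene positions and lengths came from GENCODE M21 on GRCm38, to which 31509 genes matched. A lowess curve (span 0.3) of log2 fold change on log10 length was subtracted and p recomputed (Python 3.11.15, statsmodels 0.14.6, pandas 2.3.3, scipy 1.17.1, matplotlib 3.10.9). Only the subtraction on the longest transcript, with its recomputed calls, was also run on simulated fold changes with noise of the deposited SE. Such noise lacks the wider spread of the real Wald scores (robust SD 1.53). The coding lengths, centrings and robust SD were not simulated. Alternatives were other centrings, filters, thresholds and lengths, and Wald scores over their robust SD.

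The genes, the 11 lists of other genes and the 7 marker lists were chosen with earlier results of these data known, and counts and medians describe them without a list test. Genes are named by a rule. It takes every gene past the threshold, the highest level and the highest and lowest fold change in each complex, and Cycs and Cyc1. It adds alternative forms with their partners, up to 3 genes of each other list with the smallest adjusted p, 4 regulators, Hhip, and the 3 genes on either side of the threshold. Other genes of the complexes are named beside these to show the remaining values. The values of 1 gene are not reported here, although it enters the counts.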

Additional observations from a re-analysis of the deposited data

How the results depend on the processing

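No paired analysis was possible because the deposited table holds no value per library, and for the same reason leaving out each replicate and the DESeq2 or edgeR refits were not run. No gene of the set was called lower in any setting, but with either coding length and with the robust SD none was called in either direction, and 55 and 57 of the 77 were positive with the coding-length trends removed. The number called higher, 20 as deposited, was 2 with the length trend on the longest transcript removed and 0 with either coding length, both chosen after seeing the data. It was 43 with fold changes centred on the 10% of genes with the highest levels, 13 with no filter, 0 with Wald scores over their robust SD, 37 at an adjusted p of 0.1 and 6 at 0.01. All 13 without a filter, and 16 with median centring, were among the 20. Centring on those 10% of genes moves every value by 0.05 and changes the calls over all genes from 534 higher and 685 lower to 1042 higher and 534 lower. The median of the 77 genes, 0.25, became 0.12, 0.059 and 0.080 with the 3 length trends removed.

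Complex I, with 15 calls, had 1, 0 and 0 with the length trends removed, 24 with centring on the 10% of genes with the highest levels, 8 with no filter, 0 with the robust SD and 3 at an adjusted p of 0.01. Complex V, with 3, had 1, 0 and 0, then 7 with centring on the same 10%, 0 with the robust SD and 5 at an adjusted p of 0.1. Over all genes of each setting 3.06% were called higher as deposited and 1.32, 1.28 and 1.4% with the length trends removed. The shares were 5.96% with that centring, 1.27% with no filter and 0.0401% with the robust SD. At an adjusted p of 0.1 and 0.01 they were 5.23 and 1.12%. Ndufb3, at 0.23 as deposited, turned to -8.5e-05 with the trend on the longest coding transcript removed, an adjusted p of 0.9998. Pprc1 kept its call in each setting except the robust SD, where its adjusted p was 0.314 against at most 0.00399 elsewhere. The cause of these changes was not tested beyond the settings themselves.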

Other observations

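Hccs, the enzyme that attaches haem to cytochromes c and c1, had the smallest p of the whole deposited table. It was chosen after its values were seen, since it lies outside the symbols and lists of the report. It stood at 1.13 ± 0.13 on the log2 scale (SE, adjusted p = 3.15e-15) per the authors' deposited table, a level 2.19-fold higher in HhipCKO with a 95% interval from 1.85 to 2.60. Its substrates Cycs and Cyc1 stood at 0.02 ± 0.14 and 0.18 ± 0.09 (SE) per the authors' deposited table. Hccs lies on the minus strand of the X chromosome from 169250193 to 169320372 on GRCm38, and overlaps Arhgap6, a GTPase-activating protein gene on the plus strand from 168795099 to 169304435. Arhgap6 had the second smallest p, at 0.85 ± 0.09 (SE, adjusted p = 4.46e-15) per the authors' deposited table, and without a stated strand setting reads from the overlap cannot be told apart. Among 14 tested genes within 2 Mb on either side, Hccs included, 6 rose and 2 fell. Of all tested genes 3.06% rose and 3.92% fell. The stretch was placed around Hccs after its p was seen, so Hccs adds to its own count. Those that rose include Prps2, which makes the nucleotide precursor phosphoribosyl pyrophosphate, at 0.89 ± 0.12 (SE, adjusted p = 1.05e-09) per the authors' deposited table. Mid1 and Msl3 in the same stretch had -0.68 ± 0.27 and -0.17 ± 0.10 (SE) per the authors' deposited table and did not pass. The 6 that rose lie between 167304929 and 169370003, with Msl3 and other genes that did not pass among them. The 2 that fell lie between 169979047 and 169986939. What lies behind these positions was not tested.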
